A study of Mus musculus with 36 samples.

Results

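Cholesterol reaches a hepatocyte by synthesis from acetyl-CoA or by uptake of lipoproteins, and the 33 genes described here cover both routes and what follows them. They comprise 20 enzymes of synthesis, 4 genes that control synthesis or receptor turnover, 4 genes of intracellular handling and 5 genes of cell-surface receptors and efflux. The members were listed by name for these roles, with earlier results of these data known, and no measured value enters the rule. A member was kept if its counts over the 36 libraries summed to at least 100, which 33 of 33 did. They belong to the 17994 genes tested of 54532 in the count table.

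RNA was sequenced from whole livers of 36 male mice, 2 to 3 months old, fed chow ad libitum under a 12 h light and 12 h dark cycle. The 18 control mice, labelled WT and named THRBWT here, were heterozygous (THRB+/-), so they also carried the altered allele. The 18 THRBKO mice were homozygous for it (THRB-/-, strain B6.129S1-Thrbtm1Df/J on a C57BL/6NCrl background), which affects both isoforms of thyroid hormone receptor beta (THRB), in all tissues. Sampling ran from ZT2 to ZT22 in steps of 4 h, with 3 mice of each genotype per time, where ZT (zeitgeber time) counts hours from the onset of light.

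Cholesterol synthesis begins with acetyl-CoA, passes through mevalonate and farnesyl diphosphate to squalene, and ends with the conversion of lanosterol to cholesterol in the endoplasmic reticulum. When sterols in that membrane are low, SCAP escorts SREBP2, the protein of *Srebf2*, to the Golgi, where it is cut to release a transcription factor for synthesis genes. When sterols are high, INSIG1 holds the complex back. In liver this pathway is known to be most active during feeding, and thyroid hormone is known for lowering plasma cholesterol.

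Libraries held from 29063273 to 42530551 counts, and the 33 genes took from 0.327% to 0.696% of them. No 2 libraries of a group were repeats of each other, since they differed by a chi-square per gene of 32.7 to 136. The 6 hepatocyte markers summed to between 62600 and 93800 CPM (counts scaled to library size with TMM factors) in every liver, and the Kupffer cell markers to between 132 and 449 CPM in THRBWT and between 133 and 262 CPM in THRBKO livers. The sampling times were also checked on clock genes: *Arntl* peaked at ZT22.0 in THRBWT and ZT22.2 in THRBKO livers, and *Nr1d1* at ZT7.40 and ZT7.81. These are levels in bulk tissue, in which fewer cells of a type and less RNA per cell cannot be told apart.

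The promoters of these genes are shown before their values because SREBP2 is known to act there together with the factor NF-Y. RefSeq promoters (GRCm38.p6, 250 bases before the start site and 50 after) were available for 26 of the 33 genes. *Fdft1*, *Soat2*, *Sqle*, *Fdps*, *Scarb1*, *Npc1* and *Stard4* had none. The letters searched, on both strands, were TCACNCCAC for a sterol regulatory element, CCAAT for an NF-Y box and CACGTG for an E-box. None of these 3 motifs overlapped another in the sequences printed. The 4 stretches printed here are the 250 bases before the start site of *Hmgcs1*, *Mvk*, *Mvd* and *Vldlr*. *Vldlr* is a receptor gene whose pattern differed from that of the others, which are synthesis genes rhythmic in both genotypes. The choice was made after the values had been seen. Capitals mark a sterol regulatory element or an NF-Y box on either strand, the latter read as CCAAT or as its reverse complement ATTGG.
Hmgcs1, chr13:119690101-119690350, plus strand: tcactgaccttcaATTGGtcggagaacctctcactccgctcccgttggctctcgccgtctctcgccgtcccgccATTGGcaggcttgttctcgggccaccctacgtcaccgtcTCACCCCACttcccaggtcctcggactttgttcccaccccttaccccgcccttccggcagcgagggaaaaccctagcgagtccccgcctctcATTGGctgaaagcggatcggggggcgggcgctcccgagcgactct
Mvk, chr5:114444019-114444268, plus strand: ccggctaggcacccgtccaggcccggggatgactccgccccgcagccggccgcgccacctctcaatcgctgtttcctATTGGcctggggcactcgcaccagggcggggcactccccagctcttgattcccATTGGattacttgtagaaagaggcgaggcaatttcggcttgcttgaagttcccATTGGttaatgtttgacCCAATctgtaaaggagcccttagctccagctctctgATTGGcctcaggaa
Mvd, chr8:122443423-122443672, minus strand: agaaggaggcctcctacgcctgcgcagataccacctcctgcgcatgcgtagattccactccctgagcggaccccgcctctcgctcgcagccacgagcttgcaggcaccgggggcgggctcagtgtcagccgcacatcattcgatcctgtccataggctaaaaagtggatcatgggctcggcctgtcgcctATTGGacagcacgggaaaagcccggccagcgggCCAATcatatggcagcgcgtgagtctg
Vldlr, chr19:27216234-27216483, plus strand: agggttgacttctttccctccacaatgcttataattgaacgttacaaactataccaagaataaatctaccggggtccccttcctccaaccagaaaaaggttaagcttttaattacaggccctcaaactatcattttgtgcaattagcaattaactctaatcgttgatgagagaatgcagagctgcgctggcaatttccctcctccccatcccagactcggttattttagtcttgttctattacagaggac
The *Hmgcs1* stretch holds the sterol regulatory element TCACCCCAC from 137 bases before the start and 3 NF-Y boxes. *Mvk* has 5 NF-Y boxes, *Mvd* has 2 and this *Vldlr* promoter has neither motif, while another RefSeq promoter of *Vldlr* holds an NF-Y box. *Pmvk*, which is not printed, has 1 NF-Y box. Its group means in THRBWT livers differed 2.66-fold, against 2.29-fold for *Mvk*. A link between boxes and rhythm was not tested. Over all 26 genes, 21 (80.8%) had an NF-Y box in at least 1 promoter, against 41.1% of the 27025 genes with a RefSeq promoter. The box was found in 16 of 17 synthesis enzymes and in 5 of 9 other members. The exact sterol regulatory element was found in 1 of 26 (3.85%, against 1.44% of all genes), and the E-box in 6 of 26 (23.1%, against 8.09%). The thyroid hormone response element written as a perfect direct repeat spaced by 4 was found in 0 of 26 members and in 0.0148% of all genes. Each match is a description of letters in this window.

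The 33 transcripts covered a wide range of levels. Per kb of exon length, the highest mean levels in THRBWT livers were those of *Insig1* (171 CPM per kb), the C-5 sterol desaturase gene *Sc5d* (118) and the sterol isomerase gene *Ebp* (108). The lowest were those of the receptor genes *Lrp2* (0.102 CPM per kb) and *Vldlr* (0.291). *Lrp2* had from 23 to 244 counts per library and *Vldlr* from 22 to 416, so these low transcripts carried more counting error than the others.

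**Figure D1:**
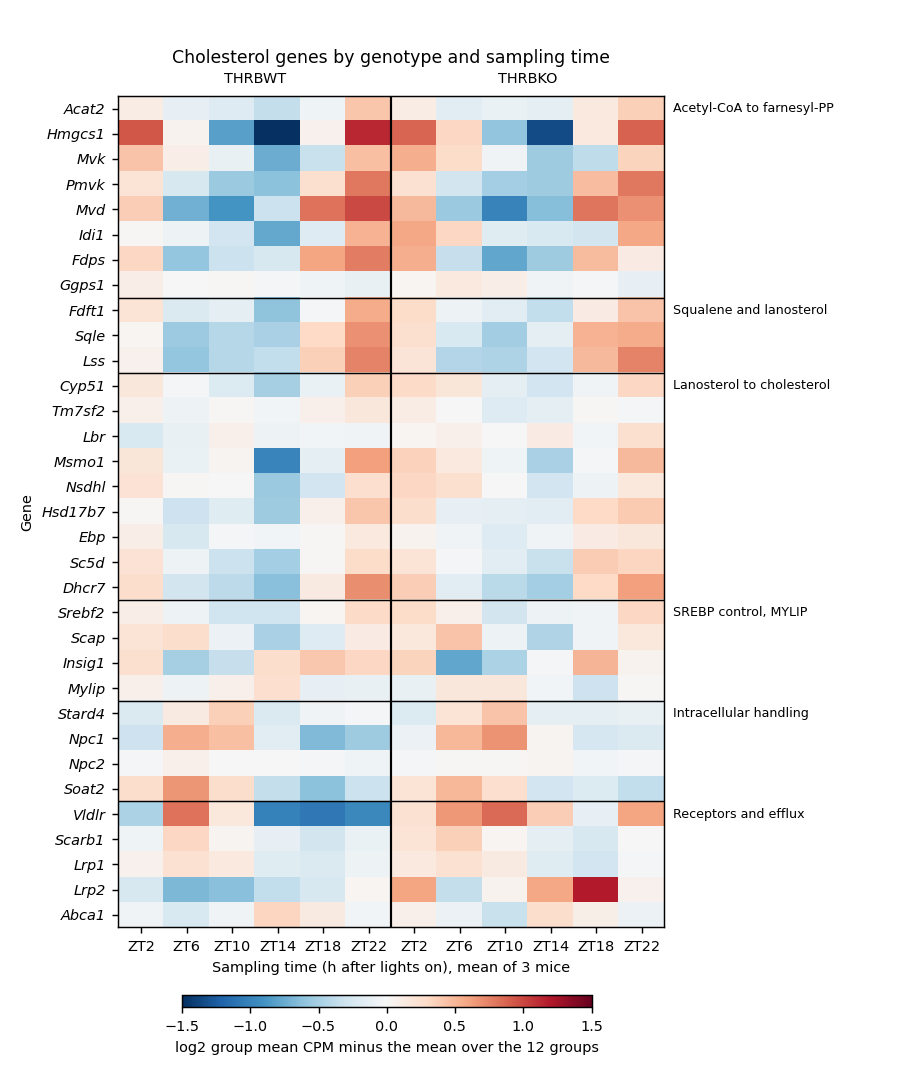
Each row is 1 of the 33 genes, grouped by role, and each column the mean of 3 mice of a genotype and sampling time. Colour gives the log2 group mean in CPM minus the gene's mean over the 12 groups. Most synthesis enzymes are red at ZT22 or ZT2 and blue at ZT10 and ZT14 in both genotypes. At ZT6 most are blue in THRBWT livers, while red and blue are mixed in THRBKO livers. *Npc1*, *Soat2* and the receptor genes *Scarb1* and *Lrp1* are red at ZT6 or ZT10.

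The main feature of these genes in both genotypes was a daily rhythm in which the enzymes of synthesis were high around the end of the dark phase. Rhythms were tested within each genotype as a 24-h sine and cosine in an edgeR quasi-likelihood fit to 18 libraries, adjusted over 17994 genes (Benjamini-Hochberg). In THRBWT livers 24 of 33 members (72.7%) passed an adjusted p of 0.05, where 33% of all genes tested did. In THRBKO livers 24 of 33 (72.7%) passed, where 28.9% of all genes did. Both genotypes passed for 21 of 33 members, where 21.5% of all genes did. THRBWT alone passed for *Fdps*, *Vldlr* and *Abca1*, THRBKO alone for *Idi1*, *Ebp* and *Stard4*, and neither for 6. The median amplitude of the members (the distance from the mean to the peak of the fitted curve, in log2 CPM) was 0.36 in THRBWT and 0.32 in THRBKO livers, against 0.21 and 0.20 over all genes. In fits with 12 libraries, the count in THRBKO livers was 22 without the mice labelled a, 13 without those labelled b and 12 without those labelled c. Over all 17994 genes the calls in THRBKO livers also fell, from 5201 to 2698, 3192 and 2343 in that order. In THRBWT livers the members called numbered 19, 21 and 16, and all genes called fell from 5936 to 4005, 3939 and 3109. With sampling time as a factor in place of the sine and cosine, 21 members passed in THRBWT and 17 in THRBKO livers. All genes called in that setting numbered 4010 and 3664.

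Of the 20 synthesis enzymes, 14 passed in both genotypes. Their fitted peaks lay between ZT21.0 (*Mvd*, *Lss*) and ZT2.02 (*Nsdhl*) in THRBWT livers, and between ZT21.1 (*Sqle*, *Lss*) and ZT2.80 (*Nsdhl*) in THRBKO livers. The highest group mean was at ZT22 for 18 of 20 enzymes in THRBWT livers and for 12 of 20 in THRBKO livers, with 5 more highest at ZT2. The lowest group mean was at ZT14 for 12 and 10 of 20.

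*Hmgcs1* (GRCm38 chr13:119690379-119708260, plus strand), the cytosolic synthase that makes HMG-CoA, had the largest amplitude of all members in THRBWT livers. At ZT14 its 3 THRBWT mice had 88.3, 78.5 and 66.0 CPM and its THRBKO mice 104, 102 and 83.0 CPM. At ZT22 the THRBWT mice had 366, 520 and 724 CPM and the THRBKO mice 234, 377 and 743 CPM. The 2 times did not overlap in either genotype, while the genotypes overlapped at both. The ratio of highest to lowest group mean was 6.92 in THRBWT and 4.68 in THRBKO livers. The fitted amplitudes were 1.30 (SE 0.14, n = 18, adjusted p = 1.42e-06 from the edgeR rhythm test) and 1.01 (SE 0.16, n = 18, adjusted p = 0.000104 from edgeR), with peaks at ZT0.335 and ZT0.693.

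The next steps of the mevalonate pathway varied less. *Mvd*, the decarboxylase that makes isopentenyl diphosphate, rose from a lowest group mean of 21.8 CPM at ZT10 to 80.8 CPM at ZT22 in THRBWT livers, a ratio of 3.71, and from 20.3 to 70.9 CPM between ZT10 and ZT18 in THRBKO livers. Ratios in THRBWT and THRBKO livers were 2.66 and 2.49 for *Pmvk* and 2.29 and 2.11 for *Mvk*, the 2 kinases of mevalonate, with rhythm calls in both genotypes. For *Acat2*, an acetyl-CoA acetyltransferase of the first step, the ratios were 1.71 and 1.43, again with both calls. *Acat2* shares 97.7% identity over 65.6% of its transcript with *Acat3*, so reads could be split between them.

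*Idi1*, the isomerase of isopentenyl diphosphate, had from 25.2 to 116 CPM (median 54.6) in THRBWT mice and from 43.9 to 139 CPM (median 65.9) in THRBKO mice. Its rhythm passed in THRBKO livers (adjusted p = 0.0113, edgeR) and not in THRBWT livers (adjusted p = 0.0758, edgeR), with amplitudes of 0.49 (SE 0.13) in THRBKO and 0.48 (SE 0.18) in THRBWT livers. *Fdps*, which makes farnesyl diphosphate, passed in THRBWT livers (adjusted p = 0.000962, edgeR) and not in THRBKO livers (adjusted p = 0.0526, edgeR). Reads of *Fdps* are uncertain, because the processed pseudogene *Gm3571* is 98.9% identical to it over 76.8% of its transcript and was given 28147 counts, more than the 17192 of *Fdps* itself. Summed with *Gm3571* and *Gm5873*, its highest and lowest group means differed 2.31-fold in THRBWT and 1.87-fold in THRBKO livers. *Ggps1*, which leads farnesyl diphosphate towards protein prenylation instead of sterols, did not pass in either genotype, and its group means differed by at most 1.2-fold.

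All 3 genes that lead to the first sterol were rhythmic in both genotypes. *Sqle*, the squalene epoxidase, had THRBWT values of 74.4, 45 and 103 CPM at ZT6 and 141, 172 and 208 CPM at ZT22. In THRBKO mice it had 69.1, 91.3 and 117 CPM at ZT6 and 119, 117 and 240 CPM at ZT22. At ZT22, 2 THRBKO mice were below and 1 above all 3 THRBWT mice. *Lss*, the lanosterol synthase, had the largest THRBWT amplitude of the 3, at 0.64 (SE 0.11, n = 18), and 0.61 (SE 0.12, n = 18) in THRBKO livers. For *Fdft1*, the squalene synthase, the ratio of highest to lowest group mean was 2.24 and 1.73. Its THRBKO call was lost without the mice labelled b, without those labelled c, and with sampling time as a factor. *Fdft1* shares 18.3% of its exon bases with *Ctsb* on the opposite strand, and the libraries do not mark strand.

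Of the 9 genes between lanosterol and cholesterol, 6 were rhythmic in both genotypes: *Cyp51*, *Msmo1*, *Nsdhl*, *Hsd17b7*, *Sc5d* and *Dhcr7*. All of these except *Dhcr7* lost the THRBKO call without the mice labelled b and also without those labelled c. *Cyp51*, *Nsdhl* and *Hsd17b7* lost it with sampling time as a factor as well. *Msmo1*, a sterol C-4 methyl oxidase, differed most between times in THRBWT livers, with group means of 84.7 CPM at ZT14 and 258 CPM at ZT22 in THRBWT livers and of 120 and 237 CPM in THRBKO livers. *Dhcr7*, the reductase of the last step from 7-dehydrocholesterol, had amplitudes of 0.61 (SE 0.11, n = 18) and 0.57 (SE 0.07, n = 18), with peaks at ZT22.8 in both genotypes. *Lbr* and *Tm7sf2* both encode a sterol C-14 reductase, and neither passed the rhythm test in either genotype. *Ebp* passed in THRBKO livers alone, at amplitudes of 0.17 (SE 0.03) in THRBKO and 0.13 (SE 0.05) in THRBWT livers.

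In several groups the synthesis enzymes also moved together between mice. To describe this, each enzyme's log2 CPM was set against its mean over the 3 mice of the group and averaged over the 20 enzymes. In THRBWT livers at ZT6, mouse b lay 0.32 below its group, with 1 of 20 enzymes above the group mean, and mouse c lay 0.33 above it, with 20 of 20. At ZT22 in THRBKO livers, mouse c lay 0.51 above its group with 19 of 20 enzymes, while mice a and b lay below it by 0.34 and 0.16, with 2 and 1 of 20. The mice labelled a at ZT2 were low in both genotypes, by 0.27 in THRBWT and 0.39 in THRBKO livers, each with 1 of 20 enzymes above the group mean. Other groups showed less of this. In THRBKO livers at ZT10, mice a, b and c had 6, 13 and 10 of 20 enzymes above the group mean. Whether other genes moved in the same way was not tested. Without mouse c of THRBKO at ZT22, 22 of 33 members passed the rhythm test in THRBKO livers, and *Hsd17b7* and *Insig1* lost the call.

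Of the genes that control the pathway, *Srebf2*, *Scap* and *Insig1* were rhythmic in both genotypes. *Srebf2* peaked at ZT23.1 in THRBWT and ZT0.0926 in THRBKO livers, with small amplitudes of 0.29 (SE 0.04, n = 18) and 0.27 (SE 0.06, n = 18). *Scap* peaked later, at ZT2.77 and ZT2.80. *Insig1* had fitted peaks at ZT19.4 (SE 0.973 h) and ZT19.7 (SE 1.4 h). The earliest peaks of the enzymes called rhythmic were at ZT20.9 (*Fdps*, SE 0.793 h) and ZT21.1 (*Sqle*, SE 0.806 h, and *Lss*). Whether these times differ was not tested. The highest group means of *Insig1*, 653 CPM in THRBWT and 705 CPM in THRBKO livers, were at ZT18. At ZT6 its THRBWT mice had 287, 271 and 492 CPM and its THRBKO mice 259, 272 and 335 CPM. At ZT22 the THRBKO mice had 378, 306 and 852 CPM, the last being the mouse in which the enzymes were high, and the THRBWT mice had 501, 613 and 722 CPM. The *Insig1* call in THRBKO livers was close to the threshold (adjusted p = 0.0481, edgeR). *Mylip*, a ubiquitin ligase that marks lipoprotein receptors for degradation, had from 4.45 to 10.7 CPM over all mice and passed in neither genotype.

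**Figure D2:**
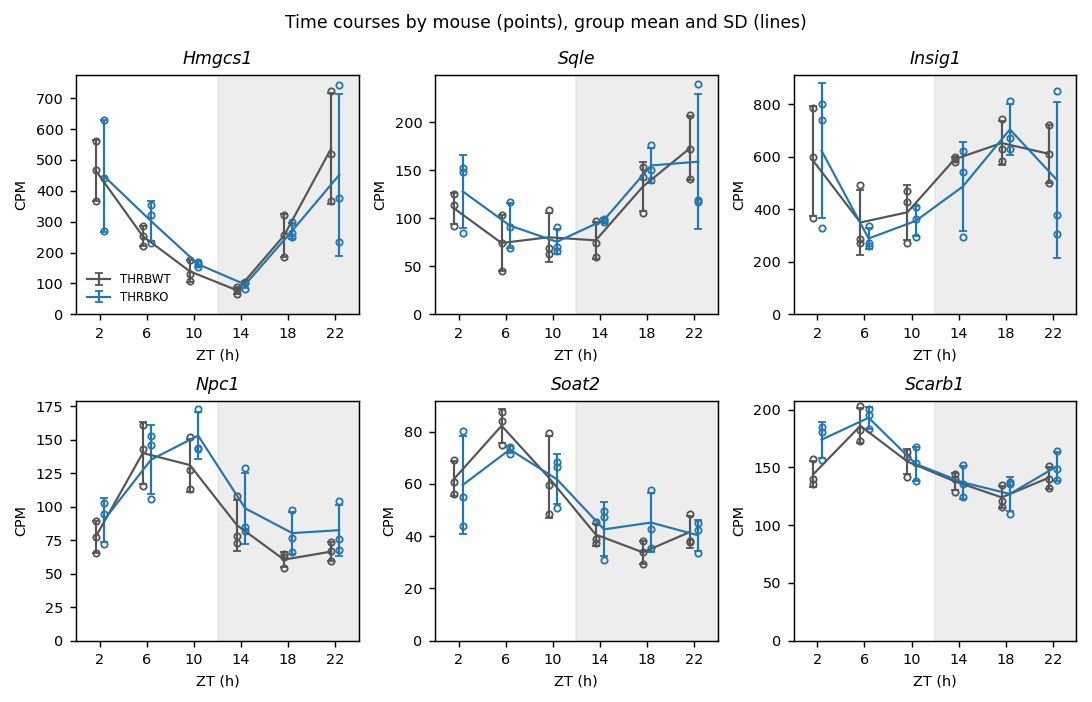
The 6 panels show CPM by ZT for *Hmgcs1*, *Sqle*, *Insig1*, *Npc1*, *Soat2* and *Scarb1*, with 1 open point per mouse, lines through group means, bars of 1 SD (n = 3) and the dark phase shaded. *Hmgcs1* falls to its lowest values at ZT14 and *Npc1* and *Soat2* are highest at ZT6 or ZT10, in grey for THRBWT and blue for THRBKO.

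The genes of intracellular handling that were called rhythmic peaked in the light phase. *Soat2*, which esterifies cholesterol for storage and secretion in hepatocytes and enterocytes, had 75.0, 84.3 and 87.7 CPM at ZT6 and 34.0, 29.2 and 38.2 CPM at ZT18 in THRBWT mice. In THRBKO mice it had 74.2, 73.9 and 71.4 CPM at ZT6 and 35.4, 42.7 and 57.5 CPM at ZT18. It peaked at ZT5.92 (SE 0.391 h) and ZT6.38 (SE 0.906 h) and passed in both genotypes. Its adjusted p of 9.46e-07 in THRBWT livers was the smallest of the 33 members in the edgeR rhythm test. *Npc1*, the lysosomal membrane protein that exports cholesterol, peaked at ZT8.06 and ZT8.53, with group means that differed 2.32-fold and 1.91-fold. Its soluble partner *Npc2* passed in neither genotype and its group means differed by at most 1.1-fold. *Stard4*, a soluble sterol carrier, was highest at ZT10, with 148 CPM in THRBWT and 155 CPM in THRBKO livers, and passed in THRBKO livers alone.

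*Scarb1*, the receptor for high-density lipoprotein, and *Lrp1*, a receptor for chylomicron remnants among other ligands, were highest at ZT6 and lowest at ZT18 in both genotypes. Their group means differed 1.5-fold and 1.36-fold in THRBWT livers and 1.51-fold and 1.42-fold in THRBKO livers, and both passed in both. *Abca1*, which exports cholesterol to apolipoprotein A-I, was highest in the dark at ZT14. It passed in THRBWT livers (peak ZT16.2, adjusted p = 0.0107, edgeR) and not in THRBKO livers (adjusted p = 0.435, edgeR).

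**Figure D3:**
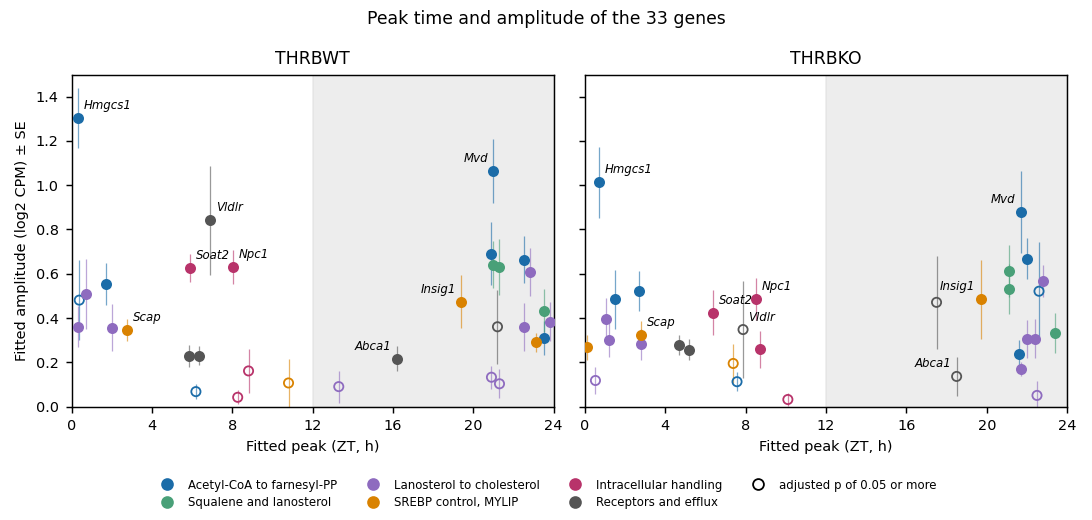
Fitted peak time (x axis, ZT in hours) is plotted against fitted amplitude (y axis, log2 CPM, bars of 1 SE) for the 33 genes in THRBWT (left) and THRBKO (right) livers, coloured by role. Filled points passed an adjusted p of 0.05 and open points did not. Filled enzymes lie from ZT20.9 (*Fdps*) to ZT2.02 (*Nsdhl*) on the left, and *Soat2* and *Npc1* at ZT5.92 and ZT8.06.

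Whether a rhythm differed between genotypes was tested by the interaction of genotype with the sine and cosine terms. An adjusted p under 0.05 was reached by 0 of 33 members in edgeR and in DESeq2 alike, and by 0% of all genes in edgeR. An unadjusted p under 0.05 was reached by 0 of 33 members, where 3.07% of all genes did so. The smallest unadjusted p of a member was that of *Vldlr* (0.106, edgeR, adjusted p = 1.0). A call in 1 genotype alone, as for *Abca1* or *Idi1*, is therefore not shown to be a difference between genotypes. Among the 21 members rhythmic in both, the THRBKO peak was later for 12 and earlier for 9, by a median of 0.0562 h and within -1.84 to 0.995 h. The fitted amplitude was smaller in THRBKO livers for 17 of 21, with a median difference of -0.06 in log2 CPM. Over all genes the median amplitude was also smaller in THRBKO livers, at 0.20 against 0.21, and these 2 shares were not computed over all genes. Of the 21 members, 14 are synthesis enzymes, which move together between mice, so these counts are not of independent genes. For *Hmgcs1* this difference was -0.29 (SE 0.21) and for *Soat2* -0.20 (SE 0.12), each less than 2 SE.

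**Figure D4:**
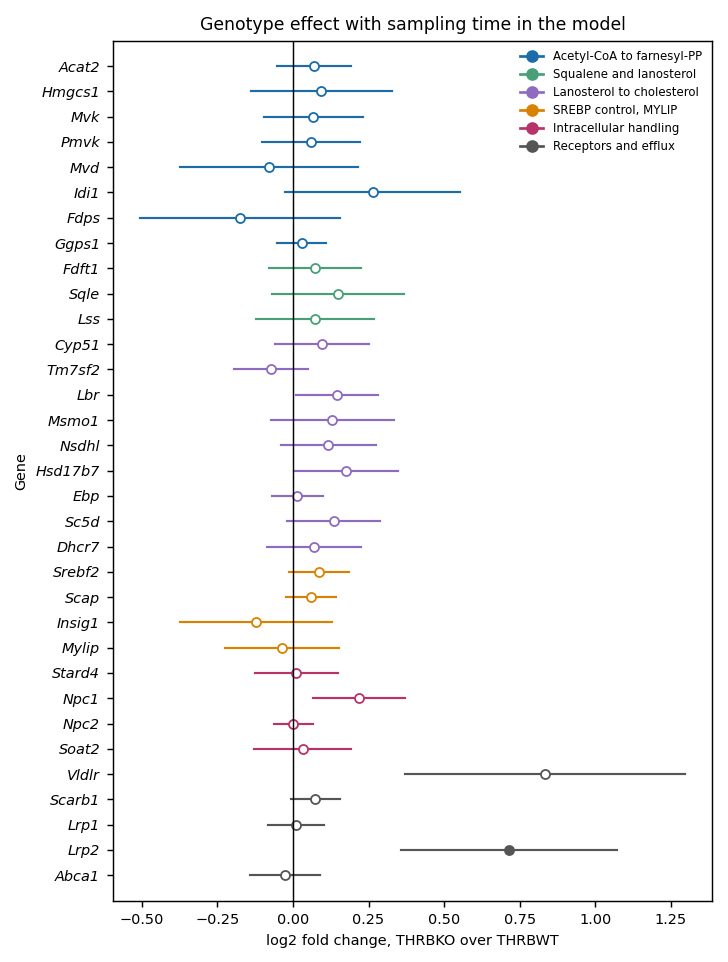
Each row gives the log2 fold change of a gene in THRBKO over THRBWT livers with sampling time in the edgeR model (x axis), with its approximate 95% interval and coloured by role. The filled point, *Lrp2*, is the only one of 33 with an adjusted p under 0.05, and the point of *Vldlr* lies farther from 0 with a wider interval.

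The comparison of genotypes asked whether the level of these transcripts over the day differed between THRBKO and THRBWT livers. The study names raised serum triiodothyronine, the active thyroid hormone, as a known feature of this systemic knockout. Effects of that hormone and of receptor loss in the liver cannot be told apart here. With sampling time as a factor, 1 of 33 members, *Lrp2*, had an adjusted p under 0.05 in the edgeR quasi-likelihood test (Benjamini-Hochberg over 17994 genes), where 0.950% of all genes did and 0.506% did so with higher levels in THRBKO livers. An unadjusted p under 0.05 was reached by 4 of 33 (*Lrp2*, *Vldlr*, *Npc1* and *Lbr*), close to the 12.1% of all genes. The log2 fold change was above 0 for 27 of 33 members and below 0 for 6, with a median of 0.07, and over all genes it was above 0 for 49.5% with a median of -0.001117.

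None of the 20 synthesis enzymes passed, that is 0 of 20 in edgeR, with 1 of 20 (*Lbr*) at an unadjusted p under 0.05 and again 0 of 20 in DESeq2. Their log2 fold changes were above 0 for 17 of 20, between -0.18 and 0.26 with a median of 0.07, and the smallest adjusted p was 0.395 (edgeR). The enzymes move together between mice, so these directions are not independent of each other. *Hmgcs1* had from 66.0 to 724 CPM (median 255) in THRBWT and from 83.0 to 743 CPM (median 256) in THRBKO mice. Its log2 fold change of 0.09 had an approximate 95% interval of -0.14 to 0.33. For *Sqle* the change was 0.15 (interval -0.07 to 0.37) and for *Idi1* 0.26 (interval -0.03 to 0.55), and both intervals include 0. *Lbr*, which is also a protein of the inner nuclear membrane, had from 6.86 to 11.6 CPM (median 9.26) in THRBWT and from 8.34 to 14 CPM (median 9.87) in THRBKO mice, a log2 fold change of 0.15 (SE 0.07, adjusted p = 0.395, edgeR).

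Among the control genes the log2 fold changes were 0.09 (SE 0.05) for *Srebf2*, 0.06 (SE 0.04) for *Scap*, -0.12 (SE 0.13) for *Insig1* and -0.04 (SE 0.10) for *Mylip*. None of these 4 passed, and the smallest adjusted p was 0.516 (edgeR). *Npc1* had from 54.2 to 161 CPM (median 77.7) in THRBWT and from 66.3 to 173 CPM (median 100) in THRBKO mice. Its mean was higher in THRBKO livers at 5 of 6 sampling times, and its log2 fold change of 0.22 (SE 0.08) did not pass (adjusted p = 0.213, edgeR). *Npc1* shares 4.52% of its exon bases with *Rmc1* on the opposite strand.

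*Lrp2* (GRCm38 chr2:69424340-69586065, minus strand) encodes megalin, an endocytic receptor of lipoproteins and many other ligands that is known for its abundance in kidney tubules. Its THRBWT mice had 2.59, 1.70 and 1.14 CPM at ZT2, 1.64, 0.790 and 1.61 at ZT6, 1.75, 1.71 and 0.714 at ZT10, 0.899, 2.77 and 1.32 at ZT14, 1.82, 2.06 and 1.55 at ZT18, and 2.26, 1.79 and 2.52 at ZT22. Its THRBKO mice had 3.74, 3.81 and 2.14 CPM at ZT2, 2.51, 1.24 and 1.26 at ZT6, 2.07, 2.27 and 2.36 at ZT10, 3.14, 3.47 and 2.98 at ZT14, 3.71, 7.99 and 3.03 at ZT18, and 3.78, 1.08 and 1.89 at ZT22. The genotypes did not overlap at ZT10, ZT14 and ZT18 and overlapped at the other times, with the highest value in THRBKO mouse b at ZT18. *Lrp2* was higher in THRBKO livers, at 2.91 ± 1.56 against 1.70 ± 0.594 CPM (SD over 18 mice per genotype). Its log2 fold change was 0.71 (SE 0.18, adjusted p = 0.0454, edgeR), with a higher THRBKO mean at 6 of 6 times. The adjusted p passed 0.05 in DESeq2 (0.00882), and in edgeR without a count filter (0.0255), without THRBKO mouse b at ZT22 (0.0151) and without THRBKO mouse c at ZT22 (0.0343). It did not pass in edgeR without THRBKO mouse b at ZT18 (log2 fold change 0.61, adjusted p = 0.0697) or without THRBWT mouse b at ZT6 (0.69, adjusted p = 0.0528). Leaving out the 12 mice of a letter gave log2 fold changes of 0.65 to 0.75 and adjusted p of 0.0895 to 0.505 (edgeR). The 5 kidney tubule markers summed to between 0.0878 and 0.316 CPM in THRBWT and between 0.0839 and 0.297 CPM in THRBKO livers, with *Kap* and *Slc12a1* at 0 in every library. The study called *Lrp2* higher in THRBKO livers in a DESeq2 test with sampling times pooled. With times pooled in edgeR, it did not pass here (adjusted p = 0.0946). The study named *Lrp2* from these same mice, so its appearance here is not independent evidence. The same holds for *Vldlr* and *Npc1*, which the study listed with a higher mesor (baseline of the fitted rhythm) in THRBKO livers. That comparison used CircaCompare at a p of 0.05 without adjustment for multiple testing. Genes entered it after a stricter cut-off for rhythm, which the study gives as compensation.

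*Vldlr* (GRCm38 chr19:27216484-27254231, plus strand), the receptor for very-low-density lipoprotein, is expressed mainly outside the liver and is low in it. Its THRBWT mice had 1.21, 2.43 and 3.84 CPM at ZT2, 2.64, 12.2 and 3.45 at ZT6, 5.32, 2.24 and 4.10 at ZT10, 1.43, 2.01 and 1.70 at ZT14, 2.03, 0.596 and 2.31 at ZT18, and 1.13, 2.14 and 2.03 at ZT22. Its THRBKO mice had 2.02, 4.40 and 5.77 CPM at ZT2, 3.86, 8.17 and 4.26 at ZT6, 8.37, 5.72 and 4.60 at ZT10, 2.97, 3.69 and 6.72 at ZT14, 2.59, 1.83 and 5.12 at ZT18, and 2.79, 9.20 and 3.72 at ZT22. The THRBKO mice were all higher at ZT14 and ZT22, and THRBWT mouse b at ZT6 exceeded every other liver. The log2 fold change of 0.83 (SE 0.24) was the largest of the 33 and did not pass (adjusted p = 0.0813, edgeR). It passed without THRBWT mouse b at ZT6 (1.02, adjusted p = 0.00477, edgeR) and in DESeq2 (adjusted p = 0.0383), and not without THRBKO mouse b at ZT22 (0.72, adjusted p = 0.146, edgeR). In THRBWT livers *Vldlr* was called rhythmic with a peak at ZT6.90, and in THRBKO livers it was not (adjusted p = 0.547, edgeR). The remaining surface genes *Scarb1*, *Lrp1* and *Abca1* had log2 fold changes of 0.07, 0.01 and -0.03, each with an SE of 0.06 or less.

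**Figure D5:**
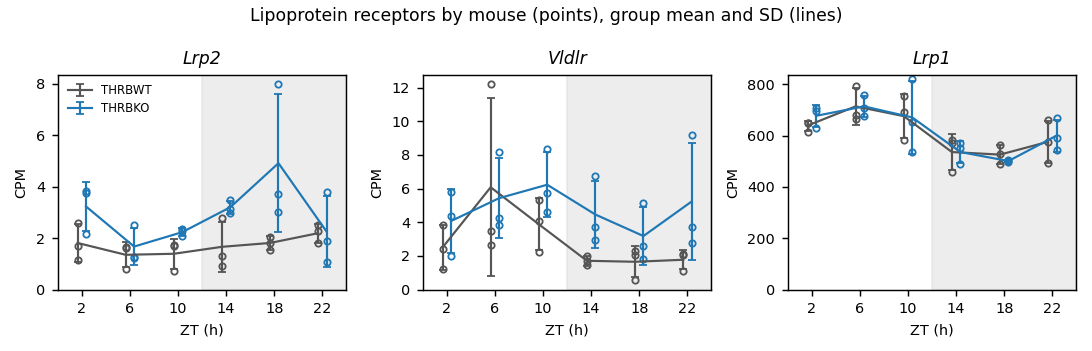
The 3 panels show CPM by ZT for *Lrp2*, *Vldlr* and *Lrp1*, with 1 open point per mouse, lines through group means, bars of 1 SD (n = 3), THRBWT in grey and THRBKO in blue. THRBKO points of *Lrp2* lie above all THRBWT points at ZT10, ZT14 and ZT18, single mice reach 7.99 CPM (*Lrp2*, THRBKO) and 12.2 CPM (*Vldlr*, THRBWT), and the genotypes overlap for *Lrp1*.

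Single sampling times were then compared, 3 mice against 3, with the 12 groups in 1 edgeR fit. Of 198 comparisons of a member at a time, 0 had an adjusted p under 0.05 in edgeR, where 0.0195% of all gene and time pairs did, and 7 had an unadjusted p under 0.05, where 4.89% did. DESeq2 also gave 0 of 198. The 3 THRBKO mice lay entirely above or below the 3 THRBWT mice in 13 of 198 comparisons (6.57%), 11 higher and 2 lower, a share below the 9.96% of all gene and time pairs. The smallest adjusted p was that of *Lrp2* at ZT18 (log2 fold change 1.43, adjusted p = 0.698, edgeR). At ZT14, THRBKO mice were all higher for *Mvk*, *Fdft1*, *Msmo1* and *Hsd17b7*, with log2 fold changes of 0.21 to 0.50. Their adjusted p at that time were 0.93 to 0.96 (edgeR), and they were named after their values were seen. The median log2 fold change of the 20 enzymes was 0.11 at ZT2, 0.18 at ZT6, -0.01 at ZT10, 0.21 at ZT14, 0.10 at ZT18 and -0.07 at ZT22, and over all genes it lay between -0.01 and 0.01 at each time. It was above 0 for 15, 18, 10, 15, 14 and 4 of the 20 enzymes at these times in order. Of all 17994 genes it was above 0 for 9071, 9085, 8663, 8947, 8824 and 9204. At ZT22 it was below 0 for 16 of 20 enzymes and for 8787 of 17994 genes. In THRBKO livers at that time, mice a and b were below their group mean for most enzymes and mouse c was above it.

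Other genes of cholesterol metabolism were taken from a list of 40, of which 39 were tested. Genotype was called for 0 of 39 in either direction (edgeR, smallest adjusted p 0.162, that of *Cyp7b1*), with a median log2 fold change of 0.01 and 21 of 39 above 0. *Cyp7b1*, an oxysterol hydroxylase, had 300 ± 120 CPM in THRBWT and 178 ± 96.0 CPM in THRBKO livers (SD over 18 mice per genotype), with a log2 fold change of -0.76 (SE 0.25). Rhythms were called for 16 of 39 in THRBWT and 17 of 39 in THRBKO livers (edgeR), beside 5936 and 5201 of all 17994 genes. They included *Insig2*, the second INSIG gene (adjusted p = 1.97e-07 and 6.96e-05, edgeR), and *Abcg5* and *Abcg8*, the paired sterol exporters of bile (adjusted p = 1.08e-08 and 6.76e-09 in THRBWT livers, edgeR).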

How the data were processed

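Livers of 36 mice were analysed, grouped by the genotype and ZT in the sample labels. The labels call the controls WT, and the study's methods give them as THRB+/-. The authors prepared poly-A selected, non-directional libraries, aligned read pairs to GRCm38 with HISAT2, counted reads per gene with featureCounts and deposited whole-number counts for 54532 genes without normalization. Versions and the handling of reads with several matches are not given in the sources used here. From these counts, genes with at least 100 counts in total (17994) were scaled by TMM and tested by edgeR 4.0.16 (glmQLFit, glmQLFTest; R 4.3.3) with Benjamini-Hochberg adjustment and a threshold of 0.05: genotype with ZT as a factor, sine and cosine terms of 24 h within a genotype, their interaction with genotype, and genotype at single ZTs. DESeq2 1.42.0, RLE scaling, other filters, pooled ZTs, ZT as a factor in the rhythm tests, a replicate block and leaving out mice were alternatives. Tests were checked on simulated counts. CPM use TMM library sizes. Amplitudes and peaks came from least squares on log2 CPM (prior count 2), with delta-method SEs. Near-identical transcripts (at least 95% over 300 bases) were found with BLAST 2.17.0 and overlaps in GENCODE annotation of GRCm38. Named genes were those called for genotype, and in each role the smallest genotype p and largest THRBWT amplitude; others were named after their values were seen. The members and lists were chosen with earlier results of these data known.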

Additional observations from a re-analysis of the deposited data

How the results depend on the processing

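The number of members called for genotype was 1 in edgeR, and 2 without a count filter, in DESeq2 and with mice of the same ZT and letter as pairs (replicate block), where *Vldlr* joined *Lrp2*. The cause was not tested. It was 0 with sampling times pooled, and from 0 to 0 without the mice of a letter. Without single mice (THRBKO ZT18 b, ZT22 b and ZT22 c, THRBWT ZT6 b; chosen after seeing the data) it was from 0 to 1. Members rhythmic in THRBKO livers numbered 24, and from 12 to 22 without a letter and 22 to 25 without a single mouse, in fits with fewer libraries; in THRBWT livers they numbered from 16 to 21. The adjusted p of *Lrp2* was 0.0946 with times pooled, and that of *Vldlr* 0.0478 without a filter and 0.00176 in the replicate block (edgeR). No direction of a named gene reversed, and the median log2 fold change of the members, 0.07, was from 0.03 (without letter c) to 0.10 (without letter b). Over all genes, genotype calls numbered 171, 306 in DESeq2, 387 in the replicate block, 65 with times pooled and 40, 81 and 68 without letters a, b and c. Rhythm calls without a letter numbered from 3109 to 4005 in THRBWT and from 2343 to 3192 in THRBKO livers. The letters were not taken to pair mice: deviations of same-letter mice correlated at -0.038 to 0.225, median 0.102, over 0.1 in 9 of 18 pairs and so not in every pair. Mice of different letters correlated at -0.14 to 0.058, median -0.0578, over 0.1 in 0 of 36 pairs. Deviations within a group cancel out, so these values are tied to the same-letter ones and are not separate evidence. The same-letter values alone are a hint from the data that mice of a letter deviated together. The deposited column names also carry numbers, which rose from a to c in every group. They were often close for the THRBWT and THRBKO mice of a ZT and letter. What the numbers stand for is not stated, and whether such mice shared a litter or batch was not tested. *Lrp2* and *Vldlr* had the lowest counts of the members, and intervals for abundant genes such as *Hmgcs1* were also wide where mice differed.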
